A study of Rattus norvegicus with 5 samples.

Results

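The genes described here encode 3 vasoactive peptide systems: the ligand Edn1 with its receptors Ednra and Ednrb and its processing enzyme Ece1, the ligand Adm with the receptor Calcrl and the partner proteins Ramp2 and Ramp3, and the ligand Apln with its receptor Aplnr. They were chosen as probe sets whose platform annotation names exactly 1 gene symbol among these 10, with the brightest probe set standing for each gene. Of the 10 symbols, 8 were matched, each by 1 probe set, out of 14506 genes named this way and 29215 probe sets in all. Ednra and Ednrb were not analysed here. All 8 probe sets were brighter, as a mean over the arrays, than the median probe set.

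The arrays measured total RNA of proximal tubular cells, the epithelium of the first part of the nephron, taken from kidneys of type I diabetic Sprague-Dawley rats. Cells of 3 animals were treated for 2 h with C-peptide, the segment cut out of proinsulin when insulin is made, and cells of 2 animals were left untreated for comparison. All animals were diabetic, the untreated ones included, and no source used here gives the age of the rats, the way diabetes was induced or the C-peptide dose. The series asks which transcripts differ soon after C-peptide is added. The values were summarised as PLIER intensities by the authors, and quantile normalisation across the 5 arrays was applied here, so that intensities below are normalised values unless said otherwise.

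Endothelin-1 is made as a large precursor, and endothelin-converting enzyme, the product of Ece1, makes the final cut to the active vasoconstrictor. In the kidney it is made by endothelium and by collecting duct cells, where it restrains salt reabsorption. Adrenomedullin, a vasodilator, signals through the calcitonin-receptor-like receptor Calcrl only when that receptor is joined by a RAMP protein, which carries it to the cell surface and sets its ligand preference. Apelin acts on the G protein-coupled receptor Aplnr. The receptors of adrenomedullin and apelin are best known from the endothelium of blood vessels.

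The 250 bases before the annotated start of 4 of these genes are shown. Adm was the ligand called higher and Edn1 a ligand that was not called, while Calcrl and Ramp3 encode a receptor and its partner, both called lower. The sequences are RefSeq's, build GRCr8, read 5′ to 3′ on the strand of the gene. Capitals mark matches to 5 motifs searched on both strands, namely ACGTG for the core that hypoxia-inducible factors bind, TGANTCA for AP-1, CCGGAA for ETS factors, AGATAA for GATA factors and TATAAA for the TATA box. The matches found do not overlap each other.
Edn1, chr17:22666688-22666937, minus strand: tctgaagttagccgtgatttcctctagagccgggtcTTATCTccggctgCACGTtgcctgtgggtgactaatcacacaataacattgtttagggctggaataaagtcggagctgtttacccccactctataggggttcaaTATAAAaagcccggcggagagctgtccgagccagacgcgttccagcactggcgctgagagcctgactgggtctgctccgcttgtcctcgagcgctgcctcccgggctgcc
Adm, chr1:174179950-174180199, plus strand: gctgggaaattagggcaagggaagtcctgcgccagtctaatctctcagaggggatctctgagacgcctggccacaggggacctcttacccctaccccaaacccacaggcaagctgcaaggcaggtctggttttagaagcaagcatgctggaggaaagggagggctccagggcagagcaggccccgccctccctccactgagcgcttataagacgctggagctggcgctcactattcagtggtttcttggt
Calcrl, chr3:89932617-89932866, minus strand: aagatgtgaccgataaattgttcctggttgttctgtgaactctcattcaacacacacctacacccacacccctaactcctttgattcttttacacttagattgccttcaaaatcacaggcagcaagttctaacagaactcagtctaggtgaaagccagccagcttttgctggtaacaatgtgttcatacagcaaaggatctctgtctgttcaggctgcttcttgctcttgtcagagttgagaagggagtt
Ramp3, chr14:85741064-85741313, plus strand: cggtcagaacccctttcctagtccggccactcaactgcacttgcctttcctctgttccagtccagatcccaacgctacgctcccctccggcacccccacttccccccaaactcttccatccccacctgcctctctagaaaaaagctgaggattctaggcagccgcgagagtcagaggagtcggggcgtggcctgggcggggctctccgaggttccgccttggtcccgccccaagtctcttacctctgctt
Edn1 held 1 GATA match from base -214 to -209, 1 hypoxia core match from -201 to -197 and 1 TATA match from -110 to -105, counted from the annotated start. None of the 5 motifs was present in the windows of Adm, Calcrl, Ramp3, Ece1 or Apln, and those of Ramp2 and Aplnr were not used here. Among all 33469 promoter windows of the same length, 16.6% held the hypoxia core, 6.34% the AP-1 motif, 12.6% the ETS motif, 10.3% the GATA motif and 12.9% the TATA motif. The base composition of the windows differed widely, with 43.6% G and C in that of Calcrl, 56.4% in Edn1, 58.8% in Adm, 61.6% in Ramp3 and 69.2% in Ece1, beside a median of 51.2% in all windows.

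Calcrl, Ramp2, Ramp3, Aplnr and Ece1 were lower after C-peptide, with fold differences of 1.92 to 2.63, and Adm was 1.65-fold higher. Edn1 and Apln lay within the spread of the arrays. No probe set of the series passed an adjusted p of 0.05 in limma (0% of 29215), so none of these differences passed after adjustment. At an unadjusted p of 0.05, 6 of the 8 members were called, 5 lower and 1 higher, where 11.4% of all probe sets were called, 6.3% lower and 5.06% higher. The median log2 difference of the 8 members was -0.97, beside 0.022 for all probe sets. In 6 members the arrays of the groups did not overlap (30% of all probe sets), 5 with every C-peptide array below both untreated arrays (13.8% of all probe sets) and 1 above (16.1%). On the same arrays 13 of 14 measured endothelial markers were called lower, with a median log2 difference of -1.13, and all 12 proximal tubule markers had a difference above 0, with 7 called higher and a median of 0.52. In bulk RNA fewer cells of a type and less RNA per cell cannot be told apart. The precision of each value was limited by having 5 arrays, and whether the animals differed in anything besides the treatment was not stated.

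**Figure D1:**
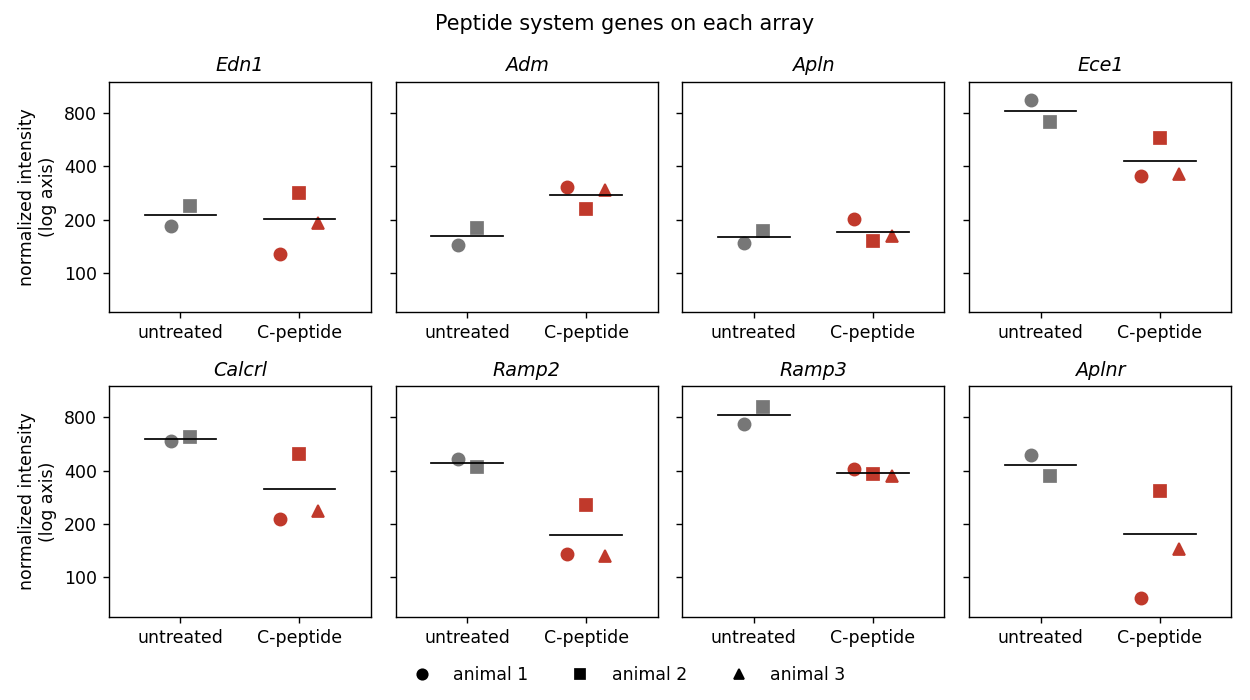
Normalised intensity (log axis) of the 8 measured genes on each array, grey for untreated and red for C-peptide, with marker shape for the animal number within a group and a line at each group mean. The C-peptide arrays lie below both untreated arrays for Ece1, Calcrl, Ramp2, Ramp3 and Aplnr and above them for Adm, and overlap them for Edn1 and Apln.

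Among the ligands, Adm was the gene whose level was higher with C-peptide. Its intensity was 145 and 179 on the untreated arrays of animals 1 and 2, and 307, 229.9 and 294 on the C-peptide arrays of animals 1, 2 and 3. Each C-peptide array lay above both untreated arrays. The group means were 162 ± 24.1 (SD, n = 2) and 277 ± 41.2 (SD, n = 3), a log2 difference of 0.72 ± 0.18 (SE; adjusted p = 0.209 in limma), and 99.2% of probe sets had a smaller difference. In the values as deposited, before normalisation, the arrays still did not overlap (164 and 189 against 217, 262 and 285), but the log2 difference was 0.49 ± 0.26 and was not called. On that scale 7.04% of all probe sets were called, 6.38% lower, and 5 of the 8 members, all lower. The median difference of all probe sets was -0.13 on that scale.

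Edn1 spread more within the C-peptide group than between the groups. Its intensity was 183 and 239.7 on the untreated arrays, and 127, 282 and 192 on the C-peptide arrays of animals 1, 2 and 3. The lowest and the highest of the 5 values were both from C-peptide arrays. The log2 difference was -0.12 ± 0.30 (SE; adjusted p = 0.915 in limma), with a 95% interval from -0.82 to 0.57, and it turned to 0.14 when the array of C-peptide animal 1 was left out, to 0.057 when that of untreated animal 2 was, and to 0.019 with array weights.

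Apln was the least variable of the 8 genes, with an SD of 0.16 in log2 over the 5 arrays. Its intensity was 147 and 173 on the untreated arrays and 201, 152 and 161 on the C-peptide arrays, and the groups overlapped. The log2 difference was 0.080 ± 0.17 (SE; adjusted p = 0.899 in limma), with a 95% interval from -0.32 to 0.48. It was -0.15 in the values as deposited, -0.029 with the array of C-peptide animal 1 left out and -0.025 with that of untreated animal 1 left out.

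On the receptor side, Calcrl had an intensity of 591 and 622 on the untreated arrays. It was 213, 498 and 236 on the C-peptide arrays of animals 1, 2 and 3. All 3 were lower than both untreated arrays, and that of animal 2 stood near the untreated level. The group means were 606 ± 22.2 (SD, n = 2) and 316 ± 158 (SD, n = 3), a log2 difference of -1.01 ± 0.33 (SE; adjusted p = 0.336 in limma). This call was the least stable of the 6. It was lost when the array of C-peptide animal 1 (difference -0.78), C-peptide animal 3 (-0.85), untreated animal 1 (-1.05) or untreated animal 2 (-0.97) was left out, and the direction held each time.

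Ramp2, the partner that makes Calcrl a receptor for adrenomedullin, had an intensity of 463 and 419 on the untreated arrays and 136, 255 and 132 on the C-peptide arrays. Animal 2 was again the highest of the treated arrays, and the groups did not overlap. The log2 difference was -1.32 ± 0.27 (SE; adjusted p = 0.153 in limma), a 2.50-fold lower level, and 0.205% of probe sets had a lower difference.

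Ramp3, the other adrenomedullin partner, was lower to nearly the same level on every treated array. Its intensity was 729 and 912 on the untreated arrays and 408, 383 and 375 on the C-peptide arrays. The treated arrays lay within a narrow band after normalisation, including animal 2. As deposited they were 291, 432 and 365, with animal 2 the highest, on arrays whose medians also differed. After normalisation the group means were 821 ± 130 (SD, n = 2) and 389 ± 17.3 (SD, n = 3), a log2 difference of -1.04 ± 0.15 (SE; adjusted p = 0.102 in limma). Of the members this was the smallest adjusted p. Over 14 alternative settings the adjusted p of Ramp3 ranged from 0.0184 to 0.775 and passed 0.05 in 3 of them, and that of Ramp2 ranged from 0.0322 to 0.815 and passed in 1. These were a pseudocount of 64 (Ramp3), testing only probe sets above the median intensity (both genes) and a trended and robust variance prior (Ramp3), settings in which 118, 393 and 207 probe sets passed.

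Aplnr, the apelin receptor, had the widest spread. Its intensity was 488 and 375 on the untreated arrays, and 76.6, 307 and 145 on the C-peptide arrays of animals 1, 2 and 3. The groups did not overlap, and the treated arrays differed more from each other than the untreated ones did. The log2 difference was -1.39 ± 0.46 (SE; adjusted p = 0.335 in limma), a 2.63-fold lower level, with a 95% interval from -2.47 to -0.32. With the array of untreated animal 1 left out the difference was -1.21 and was not called.

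Ece1, the converting enzyme, had an intensity of 942 and 707 on the untreated arrays and 350.3, 576 and 359 on the C-peptide arrays. All 3 treated arrays were lower, with animal 2 nearest to the untreated ones. The log2 difference was -0.94 ± 0.25 (SE; adjusted p = 0.226 in limma), a 1.92-fold lower level. It was -0.75 and not called with the array of untreated animal 1 left out. When any 1 C-peptide array was left out, 5 or 6 of the 8 members were called, where 2658 to 3483 of the 29215 probe sets were.

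The ligand and the receptor or enzyme of each system were also compared with each other. The log2 difference of Adm exceeded that of Calcrl by 1.72, that of Ramp2 by 2.04 and that of Ramp3 by 1.76, that of Apln exceeded that of Aplnr by 1.47, and that of Edn1 exceeded that of Ece1 by 0.82. A two-sided exact permutation test over the 10 ways to divide the arrays, whose smallest p is 0.1, gave p = 0.1 for Adm against Ramp2, Adm against Ramp3 and Edn1 against Ece1, and p = 0.2 for the other 2 pairs (0.167 and 0.2 after adjustment over the 5). The design therefore cannot reach 0.05 by this test.

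Most other genes of the 3 systems lay closer to 0. Of 18 such genes on a list of further ligands, receptors and peptide-handling enzymes, 15 were measured, with a median log2 difference of 0.10. Only 8 of these 15 were brighter than the median probe set, whereas all 8 members were. The 16 added before taking log2 draws differences of dim probe sets towards 0. At an unadjusted p of 0.05, 2 of the 15 were lower and 3 higher (11.4% of all probe sets called), and none passed after adjustment. Mme, neprilysin, a brush-border peptidase that degrades endothelin and other peptides, was at 0.78 ± 0.19 (SE; adjusted p = 0.209 in limma). Lrp2, a proximal tubule marker that encodes the brush-border receptor megalin, was at 0.80 ± 0.20 (SE) on the same arrays. Cpe, carboxypeptidase E, a prohormone-processing enzyme, was at -0.52 ± 0.14 (SE). Adm2, which encodes intermedin, a peptide related to adrenomedullin, was at 0.43 ± 0.15 (SE). Pam, which amidates peptides including adrenomedullin, was at 0.35 ± 0.14 (SE), and these 4 were called at that p. The other called gene of the list, Prcp, was at -0.47 ± 0.19 (SE) and was named after its value was seen. In the values as deposited Cpe (-0.73 ± 0.27) and Prcp (-0.70 ± 0.29, SE) were called. Mme, Adm2 and Pam, the higher ones, were not called there, on a scale where the median of all probe sets was -0.13. Ramp1, the third RAMP, which with Calcrl forms a receptor for CGRP, was at 0.22 ± 0.18 (SE), not called, beside the lower Ramp2 and Ramp3, and was named after its value was seen. The list's count of 5 was 2 in the values as deposited, with the animal number as a block, and when the array of C-peptide animal 3 or of either untreated animal was left out.

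**Figure D2:**
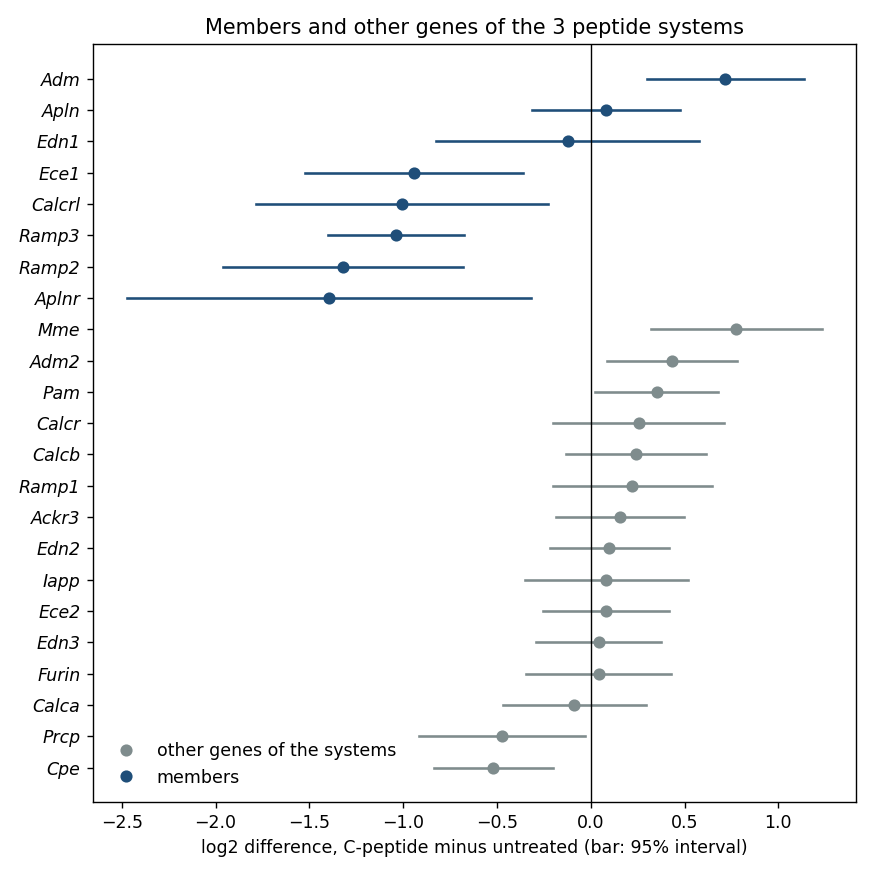
Log2 difference, C-peptide minus untreated, of the 8 members (blue) and 15 further genes of the peptide systems (grey), with 95% intervals from limma. Aplnr, Ramp2, Ramp3, Calcrl and Ece1 lie between -1.39 and -0.94, while most of the further genes lie near 0.

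Adm and Edn1 are also known as genes that hypoxia induces, so a list of 12 further hypoxia-responsive genes was read beside them. Their median log2 difference was 0.057, with 1 gene lower and 1 higher at an unadjusted p of 0.05. That is 16.7% of the list, where 11.4% of all probe sets were called, 6.3% lower and 5.06% higher. The count is therefore not read as a change of the list. Egln3, an oxygen-sensing prolyl hydroxylase, was at -0.93 ± 0.25 (SE) and P4ha1, a collagen prolyl hydroxylase, at 0.57 ± 0.19 (SE). Vegfa, a growth factor for vessels, was at 0.10 ± 0.15 (SE) and not called, a gene named after seeing its value.

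Measured markers of the labelled cell type were brighter, as a mean over the arrays, than the median probe set, and so were those of endothelial cells. All 12 proximal tubule markers were above the median intensity, led by Slc34a1, Slc4a4 and Lrp2, and their summed intensity was 15831 to 19259 on the untreated arrays and 21428 to 28471 on the C-peptide arrays. Of 15 endothelial markers 14 were measured, led by Emcn, Kdr and Eng, and none was at 0. Their summed intensity was 22500 to 26385 on the untreated arrays and 9364 to 14606 on the C-peptide arrays. Plvap, of fenestrated endothelium, was at -0.11 ± 0.17 (SE), named after its value was seen. The part of the cells that either list marks in the differences of the members was not tested.

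The member genes can be set beside these markers array by array. Among the C-peptide arrays the endothelial sum was highest for animal 2 (14606, against 9677 and 9364 for animals 1 and 3), and Edn1, Ece1, Calcrl, Ramp2 and Aplnr were also highest there, whereas Ramp3 was not. This was not particular to the endothelial sum. Animal 2 was also the highest C-peptide array for the immune sum (2800, against 2089 and 2093) and the thick limb and distal sum (14579.7, against 8368 and 11658). The podocyte sum (1694, against 1100 and 1182) and the sum of the 15 further peptide system genes (4390.3, against 3725 and 4063) were highest there too. Their peaks came mainly from single genes, Podxl (1362, against 732 and 881) and Mme (2065, against 1368 and 1756). Animal 2 was the lowest for the proximal tubule sum (21428, against 24937 and 28471). Adm was also lowest there among the C-peptide arrays (229.9, against 307 and 294), but highest for animal 1 where that sum was highest for animal 3. The log2 differences of the 12 proximal tubule markers ran from 0.30 to 0.97, a range that holds the 0.72 of Adm. Whether Adm follows these cells was not tested. Immune cell markers had a summed intensity of 3251 to 3328 on the untreated and 2089 to 2800 on the C-peptide arrays. Of these 10 markers 7 were lower at an unadjusted p of 0.05, as were 6.3% of all probe sets. Podocyte markers, 6 of 7 measured, summed to 2530 to 3190 and 1100 to 1694, and 2 were lower at that p (6.3% of all probe sets). They were led in brightness by Podxl, which endothelium also expresses. Mural cell markers, 8 of 10 measured, had a median log2 difference of -0.19 and overlapping sums, and fibroblast markers (6 measured) one of 0.12. Collecting duct markers, the other renal source of endothelin-1, had a median of 0.24 over 9 genes and thick limb and distal markers one of 0.13 over 7, with overlapping sums in both. No measured marker of these 7 other cell type lists, endothelium included, was listed at 0.

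**Figure D3:**
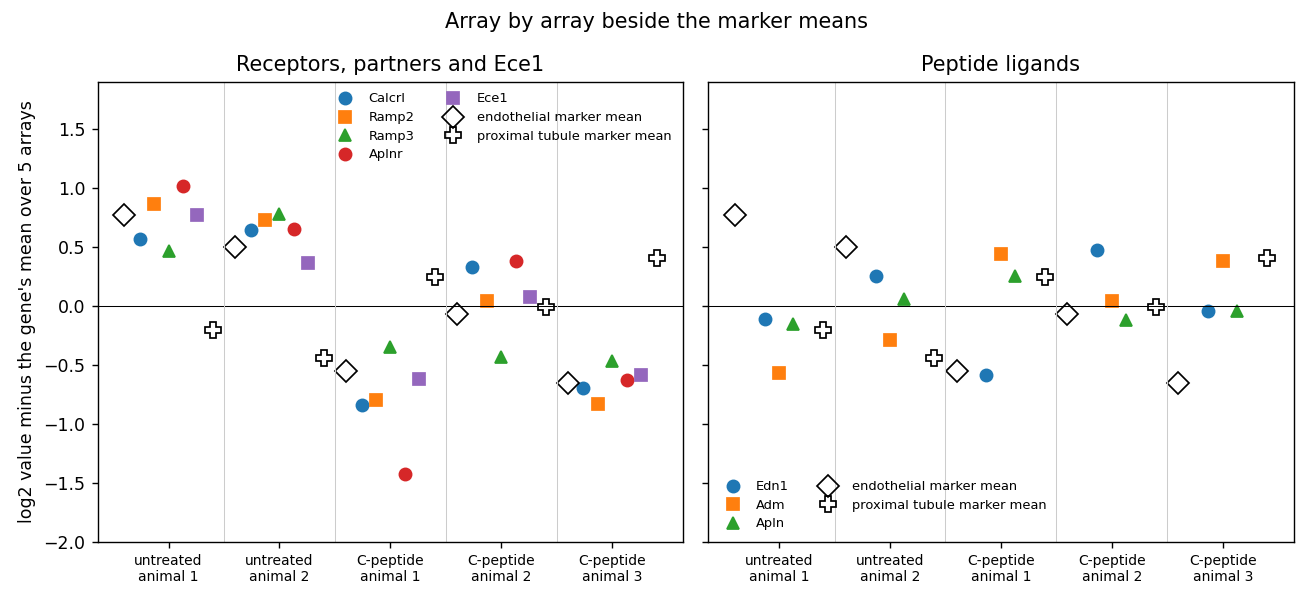
Log2 value of each gene minus its mean over the 5 arrays, for the receptor-side genes and Ece1 (left) and the ligands (right), beside the mean of the endothelial and of the proximal tubule markers (open symbols). The 5 genes on the left are high on both untreated arrays, as the endothelial mean is. Among them only Ramp3 is, after normalisation, at a like level on all C-peptide arrays.

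When the mean log2 value of the 14 endothelial markers was taken off each array, an alternative added after seeing the data, the log2 differences were 0.054 ± 0.23 for Calcrl, -0.26 ± 0.16 for Ramp2, 0.021 ± 0.25 for Ramp3, -0.33 ± 0.35 for Aplnr and 0.12 ± 0.14 for Ece1 (SE). On the same scale Adm was at 1.78 ± 0.31, Apln at 1.14 ± 0.28 and Edn1 at 0.94 ± 0.26 (SE). This step adds the same amount to the difference of every probe set, whose median was then 1.08, and 92.2% of all probe sets were called at an unadjusted p of 0.05. On either scale Apln thus lay near the middle of all probe sets and Edn1 in the lower part, with 60.1% and 27.7% at a lower difference. The 3 calls made for the ligands there are not read as changes. The endothelial marker mean itself differed by -1.06 on the log2 scale. Relative to all probe sets, Calcrl was at -1.01, Ramp3 at -1.04, Ece1 at -0.94, Ramp2 at -1.32 and Aplnr at -1.39.

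**Figure D4:**
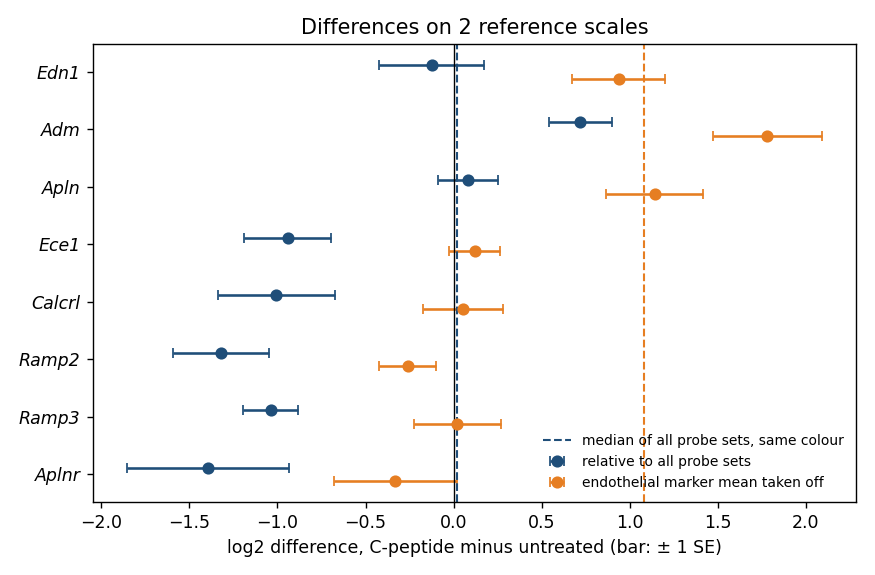
Log2 difference with its SE for the 8 genes relative to all probe sets (blue) and after the endothelial marker mean was taken off each array (orange). Dashed lines mark the median of all probe sets on each scale, at 0.022 and 1.08. All 8 genes move by the same amount as every probe set does. Calcrl, Ramp2, Ramp3, Aplnr and Ece1 move to between -0.33 and 0.12, while Edn1 (0.94) and Apln (1.14) stay near the median line and Adm (1.78) lies above it.

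The genes most like the 3 most variable members, by the root mean square difference of centred log2 values over the 5 arrays among 8564 other genes above the median intensity, lay at 0.0878 to 0.150 in that measure. Being picked as the nearest of that many genes over 5 arrays, they are close by selection, and whether they share regulation with the members was not tested. For Aplnr the nearest were the transcription factors Tbx3 (0.105), Sox17 (0.149) and Gata5 (0.150). Ramp2 was closest to Egfl7, a secreted protein of endothelium that is also on the endothelial list (0.0878), Chst15, a sulfotransferase (0.0929), and Hspb1, a small heat shock protein (0.0951). For Calcrl the nearest were Adgre5, an adhesion receptor of leukocytes (0.105), Rarg, a retinoic acid receptor (0.133), and again Chst15 (0.143). Among the members themselves Ramp2 and Calcrl were the closest pair (0.198), followed by Ece1 with Ramp2 (0.216) and with Calcrl (0.221), while Adm and Aplnr were the farthest apart (1.27).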

How the data were processed

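The deposited intensity values, on a linear scale, were summarised by PLIER in Expression Console 1.1 of Affymetrix, per the submitters' processing notes. Background correction and scaling by the authors: not given in the sources used here. Array medians of the deposited values ran from 60.1 to 95.9, so quantile normalisation was applied across the 5 arrays. Values were taken to log2(value + 16), on which a fold understates changes of dim probe sets. Groups were compared by limma 3.58.1 (lmFit, eBayes; R 4.3.3) in a two-sided test without covariates, and p-values over the 29215 probe sets were adjusted by Benjamini and Hochberg. The code was tested on simulated arrays.

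The platform annotation named 15310 probe sets by 1 symbol and 323 by several, which were not named. Without a stated genome build of the array, no gene coordinates are printed, and promoter windows carry RefSeq's build. Members and lists were chosen with earlier results of these data known. Named were all members, up to 4 genes by p from the pathway and hypoxia lists, the 3 brightest of a marker list and the 3 nearest genes by pattern, with other genes said to be named after seeing their values. Each array has its own animal within its group, per the labels.

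Alternatives were the values as deposited, median centring, pseudocounts of 1 and 64, a brightness filter, a trended and robust prior, array weights, the animal number as a block, averaging the probe sets of a gene, and dropping each array in turn.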

Additional observations from a re-analysis of the deposited data

How the results depend on the processing

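Adm, Ece1, Ramp2, Ramp3, Calcrl and Aplnr kept their direction in all 14 alternatives, and Ramp2 and Ramp3 also stayed under an unadjusted p of 0.05 in all 14. Adm (0.49 as deposited), Ece1 (-0.75 at the weakest) and Aplnr stayed under it in 13, and Calcrl in 10. Leaving out an array in turn gave -1.17 to -0.75 for Ece1, -1.38 to -0.78 for Calcrl, -1.87 to -0.96 for Aplnr, -0.39 to 0.14 for Edn1 and -0.029 to 0.18 for Apln, 3 to 6 called members, 2 to 5 called genes of the pathway list and 1765 to 3483 called probe sets. Edn1 turned to 0.019 with array weights and, by array left out, to 0.14 (C-peptide animal 1) and 0.057 (untreated animal 2). Apln turned to -0.15 as deposited and to -0.029 (C-peptide animal 1) and -0.025 (untreated animal 1). The cause of these changes was not tested. An unadjusted p of 0.05 took 3317 probe sets, and 2058 as deposited. Adjusted p 0.05 took 0 in limma, 52 as deposited, 29 after median centring, 1 and 118 at pseudocounts of 1 and 64, 393 among probe sets above the median intensity, where fewer were tested, and 207 with a trended and robust prior. The pathway count of 5 was 2 as deposited and 3 at a pseudocount of 1.

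With the endothelial marker mean taken off each array, an alternative added after seeing the data, the differences were 0.94 for Edn1, 0.12 for Ece1, -0.26 for Ramp2, 0.021 for Ramp3, 0.054 for Calcrl, 1.14 for Apln and -0.33 for Aplnr, their median was 0.086, and 3 members were called. With it taken off every probe set, 3 members were called again, beside 26925 probe sets at an unadjusted and 26800 at an adjusted p of 0.05, since this adds one amount to all differences.

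With the animal number as a replicate block, 6 members were called, beside 2668 of the 29215 probe sets. The median difference of the members was -0.85 and the pathway count was 2. Arrays of the same number did not deviate together (correlations of -0.025 and 0.0082 for animals 1 and 2). The deviations of the 2 untreated arrays mirror each other, so this cannot settle whether equal numbers name the same animal. The labels do not say, and the main fit took no pairs. No group had the 4 samples that a search for outlying arrays needs. With 2 untreated arrays, a single array can decide a call, as untreated animal 1 does for Ece1 and Aplnr.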
